A study of Mus musculus with 29 samples.

Results

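Camk2a, Camk2n1 and Ncs1 encode a calcium-driven kinase of excitatory synapses, a small protein that inhibits this kinase, and a calcium sensor of neurons. They are 3 of the 9872 genes measured in the amygdala, and none of them has a row among the 6080 genes of the prefrontal cortex tables. The genes were taken by symbol, and they were chosen with the difference between Sus-T and Res-T amygdala libraries without trauma already known. Their values in that comparison, and in the comparisons that reuse those libraries, are therefore given as a description with no test. All libraries came from sorted pyramidal neurons of B6.Cg-Tg(Thy1-YFP)HJrs/J mice, in which the Thy1 promoter drives a yellow fluorescent protein in a subset of neurons. The amygdala libraries formed 4 groups, which were 4 libraries of Sus-T with trauma, 4 of Res-T with trauma, 2 of Sus-T without trauma and 3 of Res-T without trauma. Replicate 2 of Sus-T without trauma was not analysed here. The design text speaks of 9 mice for the amygdala and there were 13 libraries, so that some libraries may share an animal and p-values measure only the spread between these libraries.

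CaMKII is activated when calcium-bound calmodulin displaces its autoinhibitory segment, and it can then keep its activity by phosphorylating itself. The alpha subunit, made from Camk2a, is abundant in forebrain excitatory neurons, where the kinase binds NMDA receptors and acts in long-term potentiation and memory. CaMK2N1 binds the active kinase and blocks it. NCS-1, made from Ncs1, binds calcium through EF-hand loops and acts in transmitter release and in the desensitization of dopamine D2 receptors.

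The coding sequence of the inhibitor and the calcium-binding loops of the sensor are shown because they are the parts that bind the kinase and calcium. Both come from GENCODE M21 transcripts on GRCm38.p6, read 5′ to 3′ on the plus strand of each gene. Camk2n1 (ENSMUSG00000046447.3) lies on chromosome 4 from 138454314 to 138460123, and its coding sequence of 237 bases, which encodes 78 residues from 2 coding exons, has its start and stop codons in capitals. Ncs1 (ENSMUSG00000062661.6) lies on chromosome 2 from 31245823 to 31295989, and its transcript has 7 coding exons and 190 codons before the stop. A search of the Ncs1 reading frame with the EF-hand loop pattern found 3 loops, which start at codons 73, 109 and 157. In each loop the capitals mark the first codon and the twelfth codon, whose residues are aspartate and glutamate in every loop and contribute to calcium binding.
Camk2n1 coding sequence: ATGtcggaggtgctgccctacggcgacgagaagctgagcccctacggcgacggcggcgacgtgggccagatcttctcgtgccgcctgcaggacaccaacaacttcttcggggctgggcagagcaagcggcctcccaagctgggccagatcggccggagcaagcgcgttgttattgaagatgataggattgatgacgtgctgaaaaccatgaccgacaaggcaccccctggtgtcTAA
Ncs1 loop 1: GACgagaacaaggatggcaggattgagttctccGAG
Ncs1 loop 2: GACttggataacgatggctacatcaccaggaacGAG
Ncs1 loop 3: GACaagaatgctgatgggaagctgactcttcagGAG

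The deposited values are a normalised signal in arbitrary units, with amygdala library totals from 3267967 to 4021272. Read depth was not given. Centred by gene on a log scale, the amygdala values lacked 1 of 12 possible dimensions, so the spread between libraries may be too small. The 3 Res-T libraries without trauma stood apart, since each carried a weight of 0.0002 or less in the missing dimension, against 0.0074 to 0.2731 in the other libraries. Each comparison below that uses these libraries cannot be made without them, and the log2 differences among the 8 libraries with trauma do not use their values, although the SE, interval and p of the fit over all 4 groups do. Of the markers of the labelled cell type, 2 of 12 pyramidal neuron genes (Rorb and Cux2) and 4 of 12 general neuron genes (Tubb3, Eno2, Elavl4 and Map2) had a row, while Slc17a7, the vesicular glutamate transporter of these neurons, had none. Rows were present for 14 of 15 oligodendrocyte markers, 8 of 10 astrocyte markers, 3 of 9 microglia markers and 0 of 8 interneuron markers.

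Without trauma, the signal of all 3 genes was higher in every Sus-T library than in any Res-T library. The kinase gene Camk2a (ENSMUSG00000024617.16) lies on chromosome 18 from 60925618 to 60988152 on the plus strand. Its signal was 1656 and 2965 in the Sus-T libraries without trauma, against 55.3, 77.3 and 68.4 in the Res-T libraries without trauma. The lower Sus-T library was thus far above the highest Res-T library, and the 3 Res-T libraries lay close together. The group means were 2311 ± 926 in Sus-T (SD, n = 2) and 67.0 ± 11.0 in Res-T (SD, n = 3), a fitted difference of 5.04 ± 0.58 on the log2(value + 1) scale (SE), or 32.9-fold. Camk2a ranked as number 2 of 9872 genes by this difference, and the median of all genes was -0.03.

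The inhibitor gene Camk2n1 had a signal of 1654 and 1353 in the Sus-T libraries without trauma, against 118.5, 212.3 and 181.1 in the Res-T libraries without trauma. The groups did not overlap, and the order of the 2 Sus-T libraries was opposite to that of Camk2a. Group means were 1503 ± 213 in Sus-T (SD, n = 2) and 171 ± 47.7 in Res-T (SD, n = 3), with a log2 difference of 3.17 ± 0.55 (SE), or 8.97-fold.

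The sensor gene Ncs1 had a signal of 337.2 and 402.2 in the Sus-T libraries without trauma, against 43.1, 33.2 and 35.1 in the Res-T libraries without trauma. These groups did not overlap either. Group means were 370 ± 45.9 in Sus-T (SD, n = 2) and 37.1 ± 5.25 in Res-T (SD, n = 3), with a log2 difference of 3.28 ± 0.40 (SE), or 9.74-fold. All 3 genes thus separated Sus-T above Res-T without trauma, as did 27.7% of all genes, and 12.4% of all genes passed an adjusted p of 0.05 as higher (limma, Benjamini-Hochberg over all genes). The genes were chosen on this comparison, so nothing is read from these shares.

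With trauma, the Sus-T libraries again had the higher mean of each gene, but the groups overlapped and no gene passed the test. Camk2a had a signal of 3974, 1138, 2306 and 762 in the Sus-T libraries with trauma, against 421.5, 835.0, 238.0 and 435.7 in the Res-T libraries with trauma. A single Sus-T library, replicate 4, lay below the highest Res-T library, replicate 2. Means were 2045 ± 1444 in Sus-T and 483 ± 252 in Res-T (SD, n = 4 each), and the log2 difference was 1.94 ± 0.45 (SE), or 3.84-fold (95% interval on the log2 scale 0.99 to 2.89, limma adjusted p = 0.118).

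Camk2n1 had a signal of 4389, 850, 1168 and 1027 in the Sus-T libraries with trauma, against 430.3, 479.4, 396.5 and 971.1 in the Res-T libraries with trauma. Sus-T replicate 1 was far above all other libraries, and Res-T replicate 4 lay above Sus-T replicate 2 and far above the rest of its group. Means were 1858 ± 1692 in Sus-T and 569 ± 270 in Res-T (SD, n = 4 each), with a log2 difference of 1.45 ± 0.43 (SE), or 2.74-fold (95% interval 0.56 to 2.35, limma adjusted p = 0.201). Without Sus-T replicate 1 the difference was 0.92 (limma adjusted p = 0.247) and the Sus-T mean was 1015.

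Ncs1 had a signal of 820.3, 383.9, 337.1 and 237.4 in the Sus-T libraries with trauma, against 130.2, 146.7, 164.6 and 276.1 in the Res-T libraries with trauma. Replicate 1 was again the highest Sus-T library, and replicate 4 was again the highest Res-T library and lay above Sus-T replicate 4. Means were 445 ± 258 in Sus-T and 179 ± 66.0 in Res-T (SD, n = 4 each), with a log2 difference of 1.21 ± 0.31 (SE), or 2.31-fold (95% interval 0.55 to 1.87, limma adjusted p = 0.141).

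The 8 libraries with trauma took no part in the choice of the genes, although the Camk2a result there was also known beforehand. With trauma, 0 of the 3 genes were called higher, where 0% of all genes were called higher and 0% lower, and 0 of the 3 separated Sus-T above Res-T with no overlap, as 3.46% of all genes did. At an unadjusted p under 0.05, 693 of 9872 genes were higher and 449 lower, and all 3 genes were among those higher, with unadjusted p of 0.000659 for Camk2a, 0.00391 for Camk2n1 and 0.00117 for Ncs1 (limma). A two-sided exact permutation test over the 8 libraries gave p = 0.0571 for each gene, where 4 libraries against 4 allow no p below 0.0286. Without Sus-T replicate 4 the log2 difference of Camk2a was 2.32 with a limma adjusted p of 0.0397, and over the libraries left out in turn its adjusted p ran from 0.0397 to 0.25. No fit of these differences without 1 library changed their direction. Fitted on these 8 libraries alone, the differences were the same and the limma adjusted p were 0.238 for Camk2a, 0.362 for Camk2n1 and 0.268 for Ncs1.

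**Figure D1:**
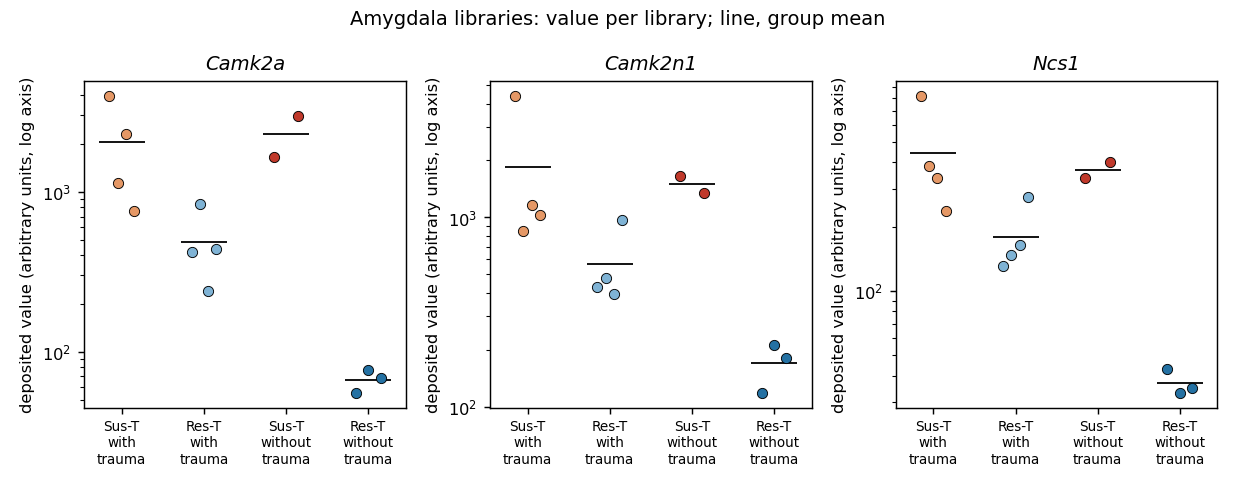
Signal of Camk2a, Camk2n1 and Ncs1 in each of the 13 amygdala libraries (arbitrary units, log axis) by group; points are libraries and lines are group means. The 3 Res-T libraries without trauma sit lowest for each gene (55.3 to 77.3 for Camk2a), and the Sus-T and Res-T libraries with trauma overlap.

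The order of the 4 groups by mean differed between the genes only at the top. For Camk2a the order from the highest was Sus-T without trauma (2311), Sus-T with trauma (2045), Res-T with trauma (483) and Res-T without trauma (67.0). For Camk2n1 and Ncs1, Sus-T with trauma came first, with Sus-T without trauma next. This order rested on Sus-T replicate 1 with trauma, without which the Sus-T mean with trauma was 1015 for Camk2n1 and 319 for Ncs1, below the Sus-T means without trauma. The 2 Sus-T groups overlapped for each gene, as did the 2 groups with trauma, while Res-T without trauma lay below all other libraries.

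In Res-T mice, all 4 libraries with trauma had a higher signal of each gene than all 3 without trauma, a separation seen in 9.68% of all genes. Camk2a averaged 483 with trauma and 67.0 without trauma in Res-T, a log2 difference of 2.70 ± 0.49 (SE), which ranked as number 3 of 9872. The difference in Res-T was 1.67 ± 0.46 for Camk2n1 and 2.19 ± 0.34 for Ncs1 (log2, SE), or 3.19-fold and 4.56-fold. These comparisons share the Res-T libraries without trauma with the one on which the genes were chosen, so no test is given.

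In Sus-T mice, the libraries with and without trauma overlapped for each gene, where 12.6% of all genes had every library with trauma above every library without. The log2 difference was -0.40 for Camk2a (95% interval -1.56 to 0.76), -0.04 for Camk2n1 (-1.14 to 1.06) and 0.11 for Ncs1 (-0.69 to 0.92). The intervals are wide, so the data do not show that the levels were equal. The trauma effect in Sus-T minus that in Res-T was -3.10 ± 0.73 for Camk2a, -1.71 ± 0.69 for Camk2n1 and -2.07 ± 0.51 for Ncs1 (log2, SE), again with no test.

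**Figure D2:**
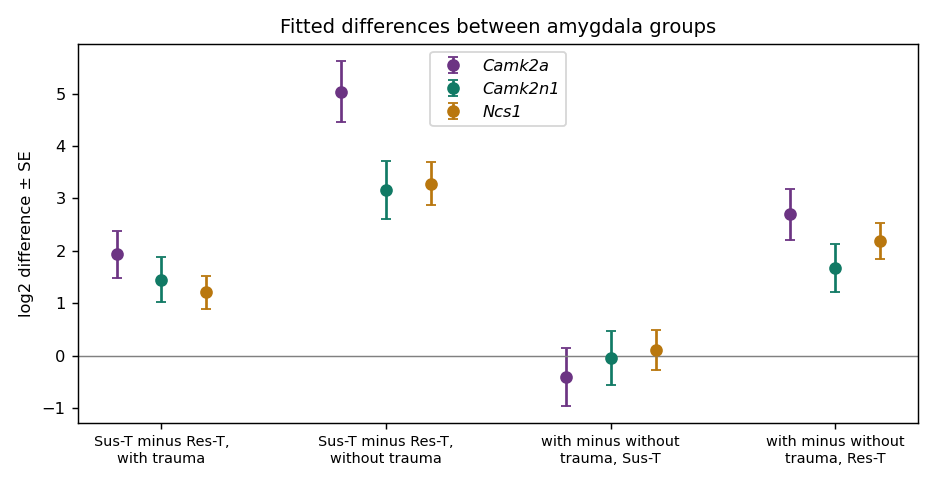
Fitted log2 differences of the 3 genes between amygdala groups, with bars of 1 SE. The difference between Sus-T and Res-T for Camk2a is 1.94 with trauma and 5.04 without, and the trauma differences lie near 0 in Sus-T and above 0 in Res-T.

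Camk2a was set against Camk2n1 by the ratio of their signals within a library, which compares libraries and not the amounts of the 2 transcripts. The ratio was 0.905, 1.34, 1.97 and 0.742 in the Sus-T libraries with trauma, against 0.980, 1.74, 0.600 and 0.449 in the Res-T libraries with trauma, and these groups overlapped widely. Without trauma it was 1.001 and 2.19 in Sus-T, against 0.467, 0.364 and 0.378 in Res-T, with no overlap. The Camk2a to Ncs1 ratio also separated the groups without trauma, at 4.91 and 7.37 in Sus-T, against 1.28 to 2.33 in Res-T. The Camk2n1 to Ncs1 ratio overlapped between these groups. The genes were chosen on this comparison, in which Camk2a ranked as number 2 of 9872. Ratios of Camk2a to genes with smaller differences therefore tend to separate these libraries. The share of ratios over all genes that do so was not computed, and nothing is read from the separation.

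**Figure D3:**
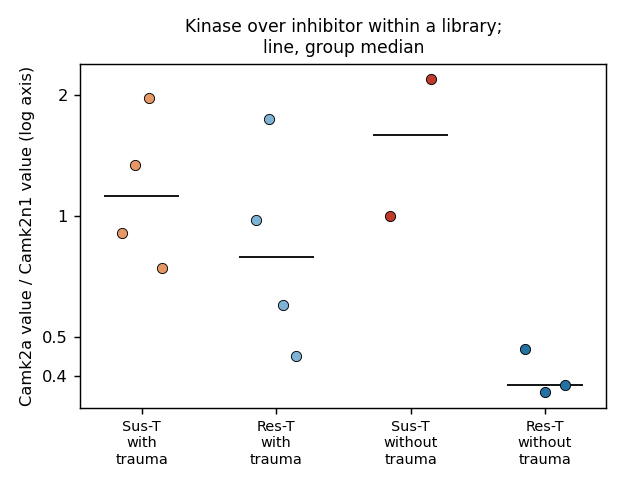
Ratio of the Camk2a to the Camk2n1 signal in each amygdala library (log axis) by group; points are libraries and lines are group medians. The 3 Res-T libraries without trauma lie between 0.364 and 0.467, below both Sus-T libraries without trauma, while the groups with trauma overlap.

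Across the 13 libraries the 3 genes varied together, with Pearson r of log2 values of 0.933 between Camk2a and Camk2n1, 0.943 between Camk2a and Ncs1 and 0.950 between Camk2n1 and Ncs1. These correlations are a description, since the libraries share groups and the genes were chosen for their group difference. With group means removed, r was 0.609, 0.525 and 0.775 for the same pairs, and without Sus-T replicate 1 with trauma it was 0.228, 0.113 and 0.399. The agreement within groups thus rested largely on that library, which had the highest signal of all 3 genes.

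Among 9465 genes ranked by r of log2 values over the 13 libraries, the one most like Camk2a was Prkce, a protein kinase C (0.986). Those most like Camk2n1 were Map3k10, a kinase of the JNK pathway (0.983), and mt-Nd6, a mitochondrial subunit of respiratory complex I (0.981). Those most like Ncs1 were Zbtb4, a zinc finger repressor (0.975), Selenow, a small selenoprotein (0.972), and Sipa1l1, a postsynaptic regulator of Rap (0.970). At least 116 genes had r above 0.9 with each of the 3 genes, so the named ones are the top of a broad set. With group means removed, Rarb (0.959) and Cacna2d2 (0.934) were among the leading genes for Camk2a. For Camk2n1 they were mt-Nd6 (0.927), Map3k10 (0.924) and Arpp19 (0.916), and for Ncs1 the chemosensory receptor genes Vmn1r76 (0.919), Vmn1r18 (0.913) and Olfr624 (0.909), which belong to large families of similar sequences.

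General neuron markers varied with the 3 genes across the 13 libraries. The summed signal of Tubb3, Eno2, Elavl4 and Map2 made up 0.111 to 0.170% of the library in Sus-T with trauma, against 0.0358 to 0.0869% in Res-T with trauma. Most of that sum was Map2, with means of 4476 in Sus-T and 2188 in Res-T with trauma. The mean log2 signal of the 4 markers, which weights them equally, overlapped with trauma, at 7.77 to 8.34 in Sus-T and 7.56 to 7.83 in Res-T. With trauma 0 of the 4 passed the test, and the log2 differences were 1.16 for Map2, 0.52 for Elavl4, 0.27 for Eno2 and -0.24 for Tubb3. Without trauma the summed signal was 0.158 to 0.195% in Sus-T, against 0.0253 to 0.0337% in Res-T. There 3 of the 4 markers were called higher in Sus-T, where 12.4% of all genes were. In these bulk samples, fewer neurons in a sort and less of a transcript per neuron cannot be told apart. The mean log2 signal of the 4 markers had r of 0.948 with Camk2a, 0.904 with Camk2n1 and 0.940 with Ncs1 over the 13 libraries, as a description. With group means removed, r was 0.552, 0.535 and 0.414 for the same genes. The astrocyte markers had r of 0.820, 0.800 and 0.830, and 0.374, 0.343 and 0.531 with group means removed. The oligodendrocyte markers had r of -0.672, -0.654 and -0.645, but 0.553, 0.105 and 0.279 with group means removed.

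Oligodendrocyte markers ran the other way without trauma. The 14 measured markers made up 3.50 to 4.84% of the library in Sus-T with trauma, against 4.14 to 5.23% in Res-T with trauma, and without trauma 1.76 to 2.60% in Sus-T, against 5.50 to 6.46% in Res-T. Without trauma 12 of 14 were called lower in Sus-T, where 15% of all genes were. Of the oligodendrocyte precursor markers, Olig1 and Olig2 were called lower and Pdgfra higher, and of 4 endothelial and mural markers Kdr was called lower and none higher. In contrast, 5 of 8 astrocyte and 3 of 3 microglia markers were called higher in Sus-T without trauma, where 12.4% of all genes were. Astrocyte markers made up 0.660 to 1.47% in Sus-T with trauma, against 0.258 to 0.710% in Res-T with trauma, and 0.964 to 1.77% in Sus-T without trauma, against 0.254 to 0.413% in Res-T without trauma. Microglia markers made up 0.00692 to 0.0302% in Sus-T with trauma, against 0.00890 to 0.0184% in Res-T with trauma, and 0.0221 to 0.0273% in Sus-T without trauma, against 0.00597 to 0.00934% in Res-T without trauma. Precursor markers made up 0.0944 to 0.130% in Sus-T with trauma, against 0.0764 to 0.126% in Res-T with trauma, and 0.0875 to 0.125% in Sus-T without trauma, against 0.0829 to 0.123% in Res-T without trauma. Endothelial and mural markers made up 0.00566 to 0.0148% in Sus-T with trauma, against 0.00690 to 0.0108% in Res-T with trauma, and 0.00782 to 0.00807% in Sus-T without trauma, against 0.00843 to 0.0146% in Res-T without trauma. The part of the astrocyte, microglia, precursor and endothelial signal in the differences of the 3 genes was not tested.

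With the neuron markers as a covariate, the log2 difference between Sus-T and Res-T with trauma was 1.01 for Camk2a, 0.60 for Camk2n1 and 0.74 for Ncs1, with limma adjusted p from 0.952 to 0.96. Without trauma the same covariate gave 0.87 ± 1.77, -0.68 ± 1.71 and 1.18 ± 1.44 (SE) for the same genes. The SE were 0.58, 0.55 and 0.40 with no covariate. The sign of Camk2n1 turned, but its value lay within 1 SE of 0. The neuron marker levels of Sus-T and Res-T did not overlap without trauma, so the group and the marker level cannot be told apart there. With the oligodendrocyte markers as a covariate, the difference with trauma was 2.33 for Camk2a (limma adjusted p = 0.0523), 1.52 for Camk2n1 (0.212) and 1.34 for Ncs1 (0.122).

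**Figure D4:**
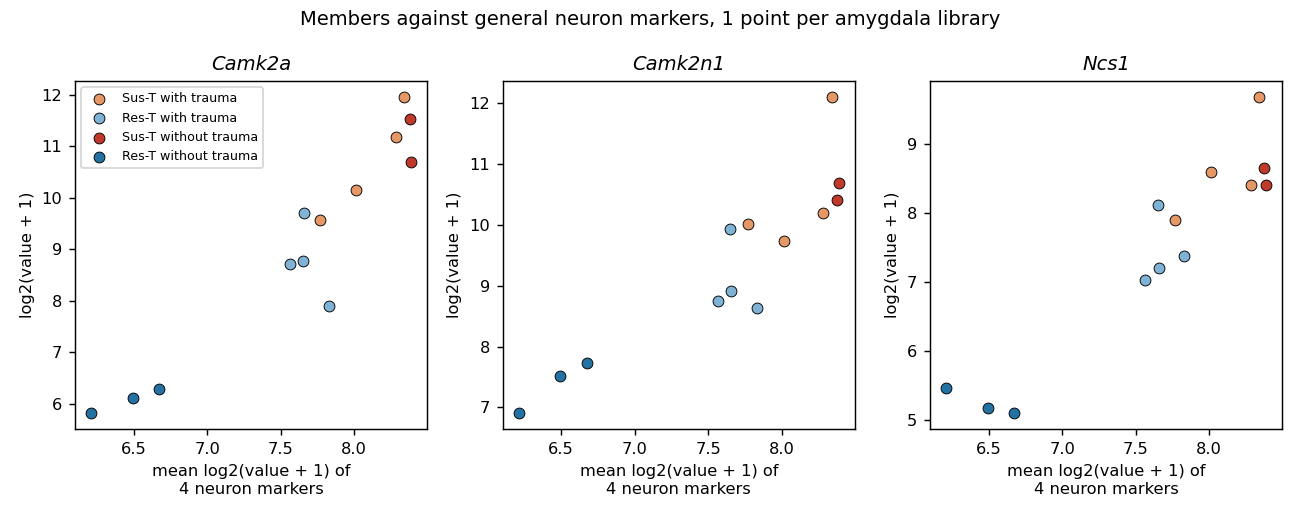
Log2(value + 1) of each gene against the mean log2(value + 1) of 4 general neuron markers, 1 point per amygdala library. Points rise together (r = 0.948 for Camk2a, or 0.552 with group means removed). The Res-T libraries without trauma lie at the lower left and the Sus-T libraries without trauma at the upper right.

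Other calcium signalling genes were followed in 9 lists of 79 further genes, of which 42 had a row. The lists were chosen with earlier results of these data known, so their counts, here and below, are no independent support. Without trauma 23 of the 42 passed as higher in Sus-T, where 12.4% of all genes did, and 1 as lower, where 15% did. With either the oligodendrocyte or the neuron covariate, 0 of the 42 passed in either direction, while over all genes 20 were called higher and 4 lower with the oligodendrocyte covariate and 0 higher and 1 lower with the neuron covariate, against 1223 higher and 1483 lower with no covariate. Every call on listed genes without trauma in the paragraphs below is thus one made with no covariate. Each count of such calls stands beside the same 12.4% of all genes called higher and 15% called lower. The covariates also widened the SE, which for Camk2a was 1.39 with oligodendrocyte and 1.77 with neuron markers, against 0.58 with none. A lost call therefore does not show that a difference was absent. The median log2 difference of the 42 was 1.04, against -0.03 for all genes. With trauma 0 of the 42 passed in either direction (limma), with a median of 0.38 against 0.01 for all genes, and 14 were higher and 0 lower at an unadjusted p under 0.05. The closest were Kalrn, with a log2 difference of 1.2 (limma adjusted p = 0.0724), and Cacna1a, with 0.84 (limma adjusted p = 0.0829).

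Of the other CaMKII subunit genes, Camk2d and Camk2g had a row, and neither passed the test. Camk2a itself was not tested without trauma and did not pass with trauma, so the subunits are not compared here. Without trauma, Camk2d had a log2 difference of 0.70 ± 0.31 (limma adjusted p = 0.0983) and Camk2g of 0.39 ± 0.29 (limma adjusted p = 0.348). With trauma these were 0.23 ± 0.24 and -0.09 ± 0.23. Camk1d, a calmodulin-dependent kinase of another branch, was the 1 of 4 other kinases that rose without trauma, with 309 ± 95.7 in Sus-T (SD, n = 2) and 54.5 ± 5.40 in Res-T (SD, n = 3). Camk2b, the other main neuronal subunit, and Camk2n2, the second inhibitor, had no row and were not analysed here.

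Calmodulin genes rose together without trauma, with 4 of 5 genes of calmodulin and its neuronal binding proteins called higher in Sus-T. Calm3 had 1246 ± 130 in Sus-T (SD, n = 2) and 441 ± 36.4 in Res-T (SD, n = 3), a log2 difference of 1.50 ± 0.22 (limma adjusted p = 0.000123). Calm2 differed by 0.99 ± 0.24 on the log2 scale (limma adjusted p = 0.00508). Calmodulin genes encode the same protein, and reads from near-identical copies may have been split between them. Neurogranin (Nrgn), which holds calmodulin at low calcium, differed by 3.08 ± 0.96 (limma adjusted p = 0.0265). With trauma none of the 5 passed, and Calm3 and Calm2 had log2 differences of 0.47 and 0.16.

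Of the relatives of Ncs1, 2 had a row and both rose in Sus-T without trauma. Kcnip3, which encodes the potassium channel partner DREAM, had a log2 difference of 1.87 ± 0.31 (limma adjusted p = 0.000324), and Ncald, neurocalcin delta, of 0.92 ± 0.29 (limma adjusted p = 0.0243). With trauma the differences were 0.48 and 0.24, and neither passed. Among the NCS-1 partners 3 of 7 rose without trauma, which were Grk2, a receptor kinase (2.07 ± 0.24), Cacna1a, the pore subunit of P/Q-type calcium channels (1.44 ± 0.24), and Itpr1, an inositol trisphosphate receptor (2.61 ± 0.63).

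CaMKII anchors and substrates at the synapse had the highest median of the calcium lists without trauma, at 2.13, against 2.30 for the general neuron markers, and 9 of 10 genes rose. The leading genes were Dlg4, the scaffold PSD-95, with 962 ± 164 in Sus-T (SD, n = 2) and 144 ± 24.4 in Res-T (SD, n = 3), Syn1 (log2 difference 2.02 ± 0.24), Kalrn (2.38 ± 0.30) and Shank2 (3.60 ± 0.53). Gria2, an AMPA receptor subunit, had a difference of 0.18 and was the 1 that did not pass.

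Of 6 genes of the phosphatase calcineurin and its regulators, 3 rose without trauma, which were Ppp3r1 (log2 difference 1.37 ± 0.30), Ppp3cb (0.80 ± 0.22) and Rcan3 (1.03 ± 0.33). Of 5 CaMKII phosphatases, 1 rose, which was Ppm1e, by 2.09 ± 0.27 (12.4% of all genes rose). Pde1c, a calmodulin-dependent phosphodiesterase, was the single listed gene that fell (15% of all genes fell), with 142 ± 49.7 in Sus-T (SD, n = 2) and 386 ± 42.6 in Res-T (SD, n = 3).

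**Figure D5:**
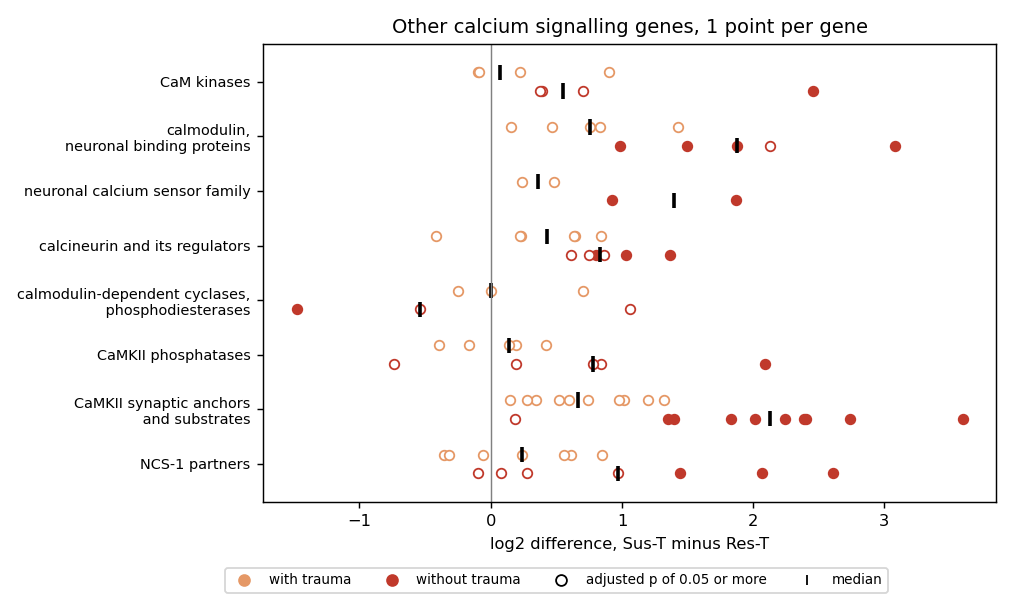
Log2 difference between Sus-T and Res-T amygdala libraries of 42 other calcium signalling genes by list, with trauma and without trauma; filled points had an adjusted p under 0.05 and bars are list medians. The synaptic anchors and substrates have a median of 2.13 without trauma and 0.67 with trauma, and no point with trauma is filled.

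In Res-T mice 13 of the 42 listed genes rose with trauma and 0 fell, where 3.3% of all genes rose and 2.88% fell, and their median log2 difference was 0.62. The smallest p among them were those of Syn1 (1.42 ± 0.20, limma adjusted p = 0.00348) and Ppm1e (1.32 ± 0.23, limma adjusted p = 0.006). In Sus-T mice 0 of the 42 passed in either direction, where 0.0203% of all genes rose and 0.0101% fell, and at an unadjusted p under 0.05 there were 1 higher and 2 lower (limma). The difference between the 2 trauma effects passed for 12 of the 42, of which 11 were lower, where 1.98% of all genes were, and 1 was higher, where 4.76% were. Pde1c was the 1 that was higher. These counts depended on single libraries, as the count of 13 fell to between 4 and 6 without any 1 of the Res-T libraries without trauma, where that over all genes fell to between 62 and 91, against 326 with every library. The count of 11 lower fell to 1 without Sus-T replicate 1 and to 2 without Sus-T replicate 3, both without trauma. Over all genes the count of lower ones fell to 19 without that replicate 1 and to 55 without that replicate 3, against 195 with every library. Among the listed genes it was 6, 3 and 5 without Res-T replicates 1, 2 and 3 without trauma, 7 without Res-T replicate 3 with trauma, and 5, 7 and 6 without Sus-T replicates 2, 3 and 4 with trauma. Without that replicate 1, the 23 genes higher in Sus-T without trauma became 15 and the 1 lower became 2.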

How the data were processed

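RNA from sorted neurons was sequenced as paired ends after ribosomal RNA removal, per the labels' protocols. Reads were handled with bcl2fastq 2.20 and Salmon 1.2 on GRCm38.p6, per the submitters' processing notes. The deposited tables hold signal values without a stated unit, normalised by the authors in a way not given in the sources used here, and depth is unknown. Library columns repeated between tables were identical in 26 of 26 cases. Values were analysed as log2(value + 1) with limma 3.58.1 in R 4.3.3 (4 groups, trend and robust moderation, Benjamini-Hochberg over 9872 genes, threshold 0.05). A filter on a mean of at least 1 removed 0 genes. The pipeline was tested on simulated data. The genes and lists were chosen with earlier results of these data known. Named genes were the 3 genes, the 3 most correlated with each by level and by deviation from group means, their family members, and of each list up to 4 past the threshold in each direction by smallest p, or the 2 with the smallest p. Some genes that this rule names are not reported here. The planned prefrontal tests were not run because the genes have no row there.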

Additional observations from a re-analysis of the deposited data

Results flagged for a closer look

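On the raw signal, a pair of libraries stood away from the rest of their group of 4 for Camk2n1. The measure was the gap to the nearest library over the range of the group, and 6 groups of 4 were examined. In all 6 the gap of the highest library, 0.519 to 0.910, exceeded that of the lowest, 0.0501 to 0.307. A chance rate of about 1 in 20 groups holds for normally distributed values, so the rate for this signal is not known. The log2 values of the other analyses were not examined in this way, so nothing is read from the flags. Sus-T with trauma replicate 1 had a signal of 4389, and its gap was 0.91 of the range of its group. Res-T with trauma replicate 4 had a signal of 971.1, and its gap was 0.856 of the range of its group. Neither library stood out in the same way for Camk2a or Ncs1.

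The trauma effect differed between Sus-T and Res-T mice for 12 of the 42 other calcium signalling genes (limma, adjusted p under 0.05). Over all genes 4.76% were called higher and 1.98% lower. The lists were chosen with earlier results of these data known. The count of listed genes lower fell to 3 without the trend and robust options. It fell to 0 with either covariate, where the calls over all genes fell too. In the main fit the difference was negative for 11 of the 12 genes. Among these, it was -2.62 for Shank2, -1.95 for Ppm1e, -1.88 for Tiam1, -1.72 for Dlg4 and -1.55 for Camk1d on the log2 scale. It was -1.46 for Grk2, -1.39 for Kcnip3, -1.28 for Syn1 and -1.03 for Calm3. It was positive for Pde1c, at 1.48.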

How the results depend on the processing

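Quantile normalization, median-ratio scaling, a mean of at least 10 and a pseudocount of 10 left the direction and the side of the threshold of all 3 genes' differences and moved no list count beyond 1.5 times. Fitting only the 2 groups compared gave 2 listed genes lower in Sus-T without trauma, and moderation without trend and robust options gave 0 listed genes higher and 3 lower in the difference between trauma effects. Whether the numbers of the replicates pair the libraries was not settled. Same-numbered libraries with trauma had correlations of deviations of 0.146, 0.159, -0.155 and 0.085. Differently numbered libraries with trauma ran from -0.446 to 0.303. Same-numbered libraries without trauma had -0.06 and -0.039, but deviations in a group of 2 libraries are opposite by construction, so these values cannot decide. The replicate block gave 1 listed gene higher in Sus-T with trauma, against 0 without the block. It gave 12 higher with trauma in Res-T, against 13, and 8 lower in the difference between trauma effects, against 11. It changed no call on the 3 genes and moved no other count. The cause was not tested for any of the values in this section.

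With the oligodendrocyte covariate, the log2 difference without trauma was 8.20 ± 1.39 for Camk2a and 4.36 ± 1.15 for Ncs1 (SE). The SE were 0.58 and 0.40 with no covariate. The mean log2 signal of these markers did not overlap without trauma, at 10.2 to 11.0 in Sus-T and 12.4 to 12.7 in Res-T. The group and the marker level cannot be told apart there, so 8.20 and 4.36 are not read as adjusted differences. The trauma difference was 3.61 in Res-T and -2.26 in Sus-T for Camk2a and -0.52 in Sus-T for Ncs1, and the difference between trauma effects was -5.86 for Camk2a and -3.01 for Ncs1. With the neuron covariate, the differences without trauma were 0.87 ± 1.77 for Camk2a, -0.68 ± 1.71 for Camk2n1 and 1.18 ± 1.44 for Ncs1 (SE). The trauma difference in Res-T was 0.062 for Camk2a, -0.76 for Camk2n1 and 0.85 for Ncs1, that in Sus-T was 0.21 for Camk2a and 0.52 for Camk2n1, and the difference between them was 0.15, 1.28 and -0.43 for Camk2a, Camk2n1 and Ncs1. Either covariate gave 0 listed genes higher and 0 lower without trauma, and 0 higher and 0 lower in the difference between trauma effects. Over all genes the calls fell too, without trauma to 20 higher and 4 lower with the oligodendrocyte covariate and to 0 and 1 with the neuron covariate, and in the difference between trauma effects to 2 and 0 and to 1 and 0. The neuron covariate gave 0 listed genes higher with trauma in Res-T.

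When each library was left out in turn, the log2 difference with trauma ran from 1.53 to 2.32 for Camk2a, from 0.92 to 1.74 for Camk2n1 and from 0.86 to 1.46 for Ncs1, and the trauma difference in Sus-T ran from -0.82 to 0.02 for Camk2a, from -0.57 to 0.22 for Camk2n1 and from -0.23 to 0.36 for Ncs1. The sign of Camk2n1 turned at 0.10, 0.22, 0.07 and 0.13, that of Ncs1 at -0.01 and -0.23 and that of Camk2a at 0.0202. Listed genes higher in Sus-T numbered 15 to 21 without trauma and 0 to 1 with trauma, and those lower without trauma 1 to 2. Those higher with trauma in Res-T numbered 4 to 12, and in the difference between trauma effects 0 to 1 were higher and 1 to 12 lower. The 1 gene higher with trauma appeared without Res-T replicate 2 or Sus-T replicate 4 with trauma.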
